A study of Mus musculus with 46 samples.

Results

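Oligodendrocyte and myelin genes were described in a part of the extended amygdala, the bed nucleus of stria terminalis (BNST), of mice exposed to chronic intermittent ethanol vapor (CIE) or to air (Ctrl). A list of 33 genes known for their role in oligodendrocytes or in myelin was matched by gene symbol to the probesets of the array. The list was chosen with earlier results of these data known, so counts of its members describe these data and are not an independent test. Of these genes 31 were measured, by 61 of the 45037 probesets, and Sept4 is named Septin4 in the array's annotation. Trf and Enpp2 had no probeset of their own and were not analysed here. Each gene was represented by its probeset with the highest mean level, so that 31 of 18193 genes are described, and other probesets are given for some of the genes.

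Oligodendrocytes wrap axons in myelin, a stack of membrane that is rich in lipid and speeds conduction. Compact myelin is held together by Mbp and related proteins, the lipids are made by enzymes such as Ugt8a and Fa2h, and the transcription factors Sox10 and Myrf switch on the myelin program. Myelin and oligodendrocytes are known to respond to alcohol in the brain.

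All mice were adult male C57BL/6J mice, and each of the 46 arrays held RNA from 1 mouse. CIE mice went through 4 cycles of ethanol vapor, 16 hours a day for 4 days, with 7 days of abstinence between cycles, and were given 1.6 g/kg ethanol with 1 mmol/kg pyrazole, an inhibitor of alcohol dehydrogenase, before each cycle. Ctrl mice were handled alike in air chambers and were given saline with the same dose of pyrazole. All groups had thus received the inhibitor before they left the chambers for the last time. Collection was at 0 h, 8 h, 72 h and 7 d from the end of the final session, with 6 mice in each of the 8 treatment and time groups, except CIE at 7 d, for which 4 arrays were analysed. The tissue is a dissected region, so fewer oligodendrocytes and less RNA per oligodendrocyte cannot be told apart.

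The promoters of 5 members are shown because these genes passed the test by their representative probeset at 72 h (Pllp, Opalin and Cd9) or at 0 h (Ugt8a and Nkx6-2). Klk6, which also passed by its representative at 0 h, in 18 of the 46 fits that left out 1 array, is not shown. Sequences are from RefSeq on build GRCm38.p6 and run 5′ to 3′ along the gene's strand, which is the minus strand for all 5, over 300 bases that end just inside the gene. Capitals mark the motifs searched on both strands: AACAAT and ACAAAG, letters bound by SOX factors, and CTGGCAC and CTGGTAC, letters bound by MYRF.
Pllp, chr8:94696193-94696492: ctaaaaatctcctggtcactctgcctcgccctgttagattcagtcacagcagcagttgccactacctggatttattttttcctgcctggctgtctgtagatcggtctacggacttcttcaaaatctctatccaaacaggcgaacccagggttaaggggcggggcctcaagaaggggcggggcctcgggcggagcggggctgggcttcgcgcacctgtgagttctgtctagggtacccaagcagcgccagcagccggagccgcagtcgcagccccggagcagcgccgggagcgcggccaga
Opalin, chr19:41077064-41077363: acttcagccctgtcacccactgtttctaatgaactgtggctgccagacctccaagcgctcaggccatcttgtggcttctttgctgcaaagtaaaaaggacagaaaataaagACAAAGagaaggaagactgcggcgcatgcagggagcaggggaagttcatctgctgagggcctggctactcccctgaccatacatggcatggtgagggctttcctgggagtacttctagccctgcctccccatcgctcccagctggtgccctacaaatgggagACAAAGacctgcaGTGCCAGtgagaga
Cd9, chr6:125494711-125495010: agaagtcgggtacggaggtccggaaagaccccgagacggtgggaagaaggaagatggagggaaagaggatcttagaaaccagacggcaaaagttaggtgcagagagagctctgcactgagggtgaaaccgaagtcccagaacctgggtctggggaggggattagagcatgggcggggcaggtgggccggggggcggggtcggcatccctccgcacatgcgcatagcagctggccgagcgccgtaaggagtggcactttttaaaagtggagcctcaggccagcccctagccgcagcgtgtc
Ugt8a, chr3:125938603-125938902: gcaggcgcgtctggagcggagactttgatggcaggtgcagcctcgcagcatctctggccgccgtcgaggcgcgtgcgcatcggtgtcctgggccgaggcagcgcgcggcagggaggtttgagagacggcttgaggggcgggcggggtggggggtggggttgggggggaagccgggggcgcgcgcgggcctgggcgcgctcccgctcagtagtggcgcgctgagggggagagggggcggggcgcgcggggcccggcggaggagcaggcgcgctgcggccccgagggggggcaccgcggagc
Nkx6-2, chr7:139582748-139583047: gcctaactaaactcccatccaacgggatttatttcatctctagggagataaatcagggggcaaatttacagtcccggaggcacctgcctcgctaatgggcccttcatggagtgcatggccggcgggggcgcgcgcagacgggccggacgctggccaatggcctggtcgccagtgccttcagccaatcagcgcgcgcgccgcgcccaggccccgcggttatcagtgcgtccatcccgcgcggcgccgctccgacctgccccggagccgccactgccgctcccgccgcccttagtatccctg
Opalin's window held 3 matches, ACAAAG at 139 bases before and 23 bases after the start and CTGGCAC on the opposite strand at 36 bases after it. The other 4 windows held none of these letters. A SOX motif stood in 27.0% of all 32851 promoter windows and a MYRF motif in 7.10%. Of the 38 windows of 24 members, 15 held a SOX motif and 7 a MYRF motif, and no test was made of either count. Mbp, Fa2h, Car2, Sox10, Myrf, Evi2a and Bcas1 were not analysed for motifs here.

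Values are log2 intensities, normalized together by the authors, and 1 unit is a doubling. The brightest member, Mbp, had group means from 14.08 to 14.15 where the highest value of the whole table was 14.4. Near that ceiling several mice shared the same Mbp value after normalization. Differences between groups were tested in limma on all 46 arrays with p-values adjusted by Benjamini-Hochberg over all 45037 probesets, and a probeset passed at an adjusted p of 0.01 or less. The residual SD between mice of 1 group ran from 0.0324 for Mbp to 0.258 for Lpar1, with a median of 0.159 over the 31 members.

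Of the 4 times, the members' median difference between treatments was largest at 72 h. All 31 had a lower mean in CIE than in Ctrl mice, beside 51.7% of all genes, and the median difference was -0.30 beside -0.0036 over all genes. For 30 of the 31 the unadjusted p was under 0.05, against 17.0% of all genes, and Mbp was the exception. After adjustment Pllp, Opalin and Cd9 passed, 3 of 31 members beside 0.687% of all genes and 3 of 61 member probesets beside 0.433% of all probesets; the shares called as lower were 0.220% of all genes and 0.129% of all probesets. In 19 of the 31 members every CIE mouse lay below every Ctrl mouse, beside 2.09% of all genes. Over all 61 probesets 59 were lower, and the 2 that were not belonged to Mbp and Bcas1. The members often moved together from mouse to mouse, so these counts do not stand for 31 separate results.

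**Figure D1:**
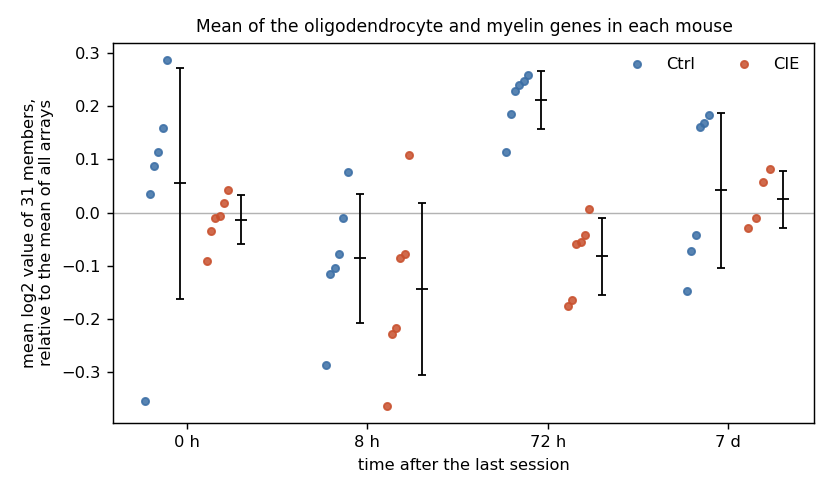
Mean log2 value of the 31 members in each mouse, relative to the mean of all 46 arrays, by time after the last session and treatment; each point is 1 mouse and the black bars are group means with SD. At 72 h the 6 Ctrl mice lay between 0.114 and 0.258 and the 6 CIE mice between -0.176 and 0.0066, while the groups overlapped at the other times.

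Averaged over the members and set against the mean of all arrays, the 6 Ctrl mice at 72 h lay between 0.114 and 0.258, with a median of 0.234, and the 6 CIE mice between -0.176 and 0.0066, with a median of -0.0577. No CIE mouse reached the lowest Ctrl mouse at that time. The Ctrl mean of 0.212 at 72 h was the highest of the 8 groups, while the other Ctrl groups stood at 0.0547 at 0 h, -0.0861 at 8 h and 0.0418 at 7 d. The CIE groups stood at -0.0131 at 0 h, -0.144 at 8 h, -0.0822 at 72 h and 0.0248 at 7 d. The SD between mice within a group was 0.127 when pooled over the 8 groups, and ran from 0.0462 in CIE at 0 h to 0.218 in Ctrl at 0 h. For 23 of the 31 members Ctrl at 72 h had the highest mean of the 8 groups, and for 11 CIE at 72 h had the lowest, with CIE at 8 h the lowest for another 12.

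Among the 15 proteins of the sheath and its cytoskeleton, the median difference at 72 h was -0.298. Pllp, plasmolipin, a membrane protein of myelin, ran in Ctrl mice from 10.86 through a median of 10.97 to 11.09 and in CIE mice from 10.41 through 10.63 to 10.71. No value overlapped, and the difference was -0.40 (SE 0.079, adjusted p 0.00505), a level 1.32-fold lower. Opalin, a transmembrane glycoprotein of mature oligodendrocytes, ran in Ctrl mice from 10.93 through 11.00 to 11.11 and in CIE mice from 10.49 through 10.65 to 10.75. Its difference was -0.39 (SE 0.0844, adjusted p 0.00901), and its second, dimmer probeset differed by -0.19 (adjusted p 0.706). Cd9, a tetraspanin of myelin that other brain cells also make, ran in Ctrl mice from 11.24 through 11.30 to 11.35 and in CIE mice from 10.77 through 10.96 to 11.08. The Cd9 difference was -0.37 (SE 0.0748, adjusted p 0.00581), and its Ctrl mice lay close together.

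None of the other 12 sheath genes passed at 72 h. Mag, a glycoprotein of the myelin layer next to the axon, differed by -0.38 (adjusted p 0.0125), from 11.51 to 11.74 in Ctrl mice and 11.04 to 11.42 in CIE mice. Mog, on the outer face of myelin, differed by -0.30 (adjusted p 0.112), from 10.13 to 10.27 in Ctrl mice and 9.75 to 10.08 in CIE mice. Both were without overlap between the groups. Mal, a proteolipid of myelin membrane, differed by -0.21 and Hapln2, a link protein of the node of Ranvier, by -0.39, with adjusted p of 0.034 and 0.0478. Mbp, myelin basic protein, differed by -0.0099 (SE 0.0276, adjusted p 0.957) at its representative probeset, near the top of the scale.

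Brighter members had smaller differences at 72 h. The 5 members with a mean log2 value of 13 or more, Mbp, Mobp, Cnp, Mal and Qdpr, had a median difference of -0.0924, between -0.208 and -0.0099. The other 26 had a median of -0.319, between -0.549 and -0.154. Dimmer probesets of Cnp differed by -0.29 and -0.26 against -0.09 at its brightest probeset. The dimmer Mbp probesets went different ways, with -0.45 for 1425263_a_at, 0.14 for 1425264_s_at and -0.04 for 1451961_a_at, and none of these 3 passed. These are values of different probes, and how far the ceiling narrowed the bright ones was not tested.

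**Figure D2:**
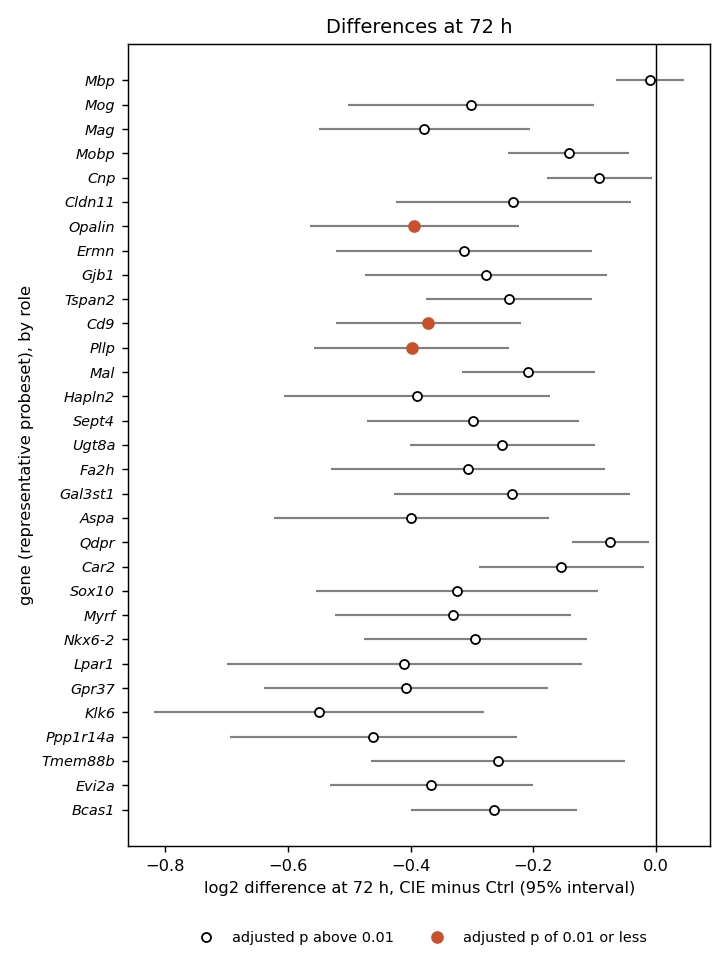
Log2 difference at 72 h (CIE minus Ctrl, 6 mice each) for the representative probeset of each of the 31 members, in order of role, with its 95% interval from limma; filled points passed at an adjusted p of 0.01 or less. All 31 points lie below 0, from -0.549 for Klk6 to -0.0099 for Mbp, and 30 of the 31 intervals lie below 0.

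The 6 enzymes had a median difference of -0.242 at 72 h and none passed. Aspa, aspartoacylase, which frees acetate from N-acetylaspartate in oligodendrocytes, ran in Ctrl mice from 11.09 through 11.41 to 11.44 and in CIE mice from 10.81 through 10.95 to 11.12. The difference was -0.40 (adjusted p 0.0503), and 1 Ctrl mouse fell among the CIE mice. Fa2h, which hydroxylates the fatty acids of myelin lipids, differed by -0.31 (adjusted p 0.165), and Gal3st1, the sulfotransferase that makes sulfatide, by -0.23 (adjusted p 0.245). Ugt8a, which makes galactosylceramide, differed by -0.25 (adjusted p 0.0706) without overlap between the groups. Its dimmer probeset did overlap, from 8.67 to 9.04 in Ctrl mice and 8.05 to 9.07 in CIE mice. Car2, a carbonic anhydrase, and Qdpr, a pteridine reductase, differed by -0.15 and -0.07. The dimmer Qdpr probeset had means of 12.82 in Ctrl mice and 12.64 in CIE mice.

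The 3 transcription factors had a median difference of -0.325, and none passed. Myrf, the myelin regulatory factor, differed by -0.33 (adjusted p 0.058), from 10.85 to 11.15 in Ctrl mice and 10.51 to 10.90 in CIE mice, which overlapped by a narrow margin. Sox10 differed by -0.32 (adjusted p 0.149), and Nkx6-2 by -0.29 (adjusted p 0.0783).

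The 7 receptors, signalling and other proteins had the lowest median, -0.408, again with none past the threshold. Klk6, a serine protease of oligodendrocytes, ran in Ctrl mice from 9.20 through 9.45 to 9.62 and in CIE mice from 8.63 through 8.92 to 9.11, a difference of -0.55 (SE 0.133, adjusted p 0.0219). Ppp1r14a, an inhibitor of myosin phosphatase, differed by -0.46 (adjusted p 0.0272), and Evi2a, a membrane protein of unsettled function, by -0.37 (adjusted p 0.0115). These 3 genes were without overlap. The lysophosphatidic acid receptor Lpar1 and the orphan receptor Gpr37 both differed by -0.41, with adjusted p of 0.145 and 0.0518. Bcas1 differed by -0.26 (adjusted p 0.028) and Tmem88b by -0.26 (adjusted p 0.229).

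The calls at 72 h depended on single mice. Over the 46 fits that each left out 1 array, 0 to 9 member probesets passed, Pllp in 39, Cd9 in 38 and Opalin in 22. The count was 0 without Ctrl 72 h mouse 16, 44, 52 or 68 or CIE 72 h mouse 3, 35 or 71, and 1 without Ctrl 72 h mouse 34. It was 5 without Ctrl 0 h mouse 12 or Ctrl 7 d mouse 62, 6 without CIE 8 h mouse 21 and 9 without Ctrl 0 h mouse 48. The count of 31 members with a lower CIE mean was the same in all of these fits.

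Lists of related genes and of other cell types, also chosen with earlier results of these data known, were set beside the members at 72 h. Of 33 further oligodendrocyte and myelin genes that were not members, 31 were lower in CIE, with a median of -0.256, and 2 passed: Ndrg1 (-0.31, adjusted p 0.00697) and the fatty acid elongase Elovl1 (-0.33, adjusted p 0.00972). Of 13 genes of precursors and newly formed oligodendrocytes the median was -0.0466, and only Gpr17, a receptor that marks cells on the way to maturity, passed, at -0.48 (adjusted p 0.00143). All 9 microglial markers were lower in CIE, with a median of -0.467, and C1qb, a subunit of complement C1q, passed (-0.51, adjusted p 0.00987). Per mouse the microglial mean ran from 0.211 to 0.352 in Ctrl and from -0.334 to 0.0642 in CIE, so that this list was also lower without overlap at 72 h. Of 10 astrocyte markers 8 were lower with a median of -0.0981, and S100b passed (-0.25, adjusted p 0.00789). S100b is also made by oligodendrocytes. Of 9 endothelial markers 6 were lower, with a median of -0.113. Of 11 neuronal markers 4 were lower, with a median of 0.0439, and Map2, a dendritic microtubule protein, passed as higher (0.17, adjusted p 0.00952). All 11 markers of striatal medium spiny neurons, from the neighboring striatum, were lower with a median of -0.211 and none passed. Of 8 markers of choroid plexus and ependyma the median was 0.0798. The part of these lists in the members' values was not tested, apart from a fit with the striatal mean of each mouse as a covariate. In that fit 6 member probesets passed at 72 h, and the share of all probesets called in it is not given here.

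**Figure D3:**
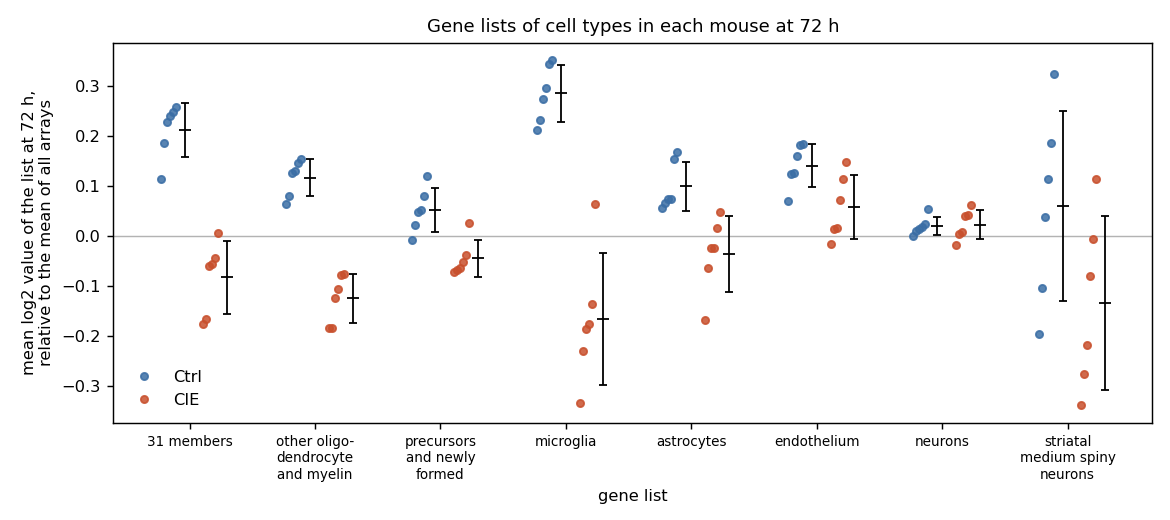
Mean log2 value of each gene list in each mouse at 72 h, relative to the mean of all 46 arrays; points are mice and black bars are group means with SD (6 mice each). The members, the other oligodendrocyte and myelin genes, the microglial markers and the astrocyte markers did not overlap between Ctrl and CIE, while the neuronal markers lay between -0.0172 and 0.0615 in both groups.

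At 0 h, when mice left the chambers, members went in both directions. By the representative probesets 3 of 31 members passed, all lower in CIE, beside 3.09% of all genes called and 1.54% called as lower. Over all probesets 5 of 61 passed beside 2.40% of the array, 4 as lower beside 1.35% and 1 as higher beside 1.05%. The median difference was -0.0406, with 20 of 31 below 0 beside 49.6% of all genes. In 0 of 31 members did every CIE mouse lie below every Ctrl mouse at the representative probeset, beside 1.59% of all genes.

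Ugt8a was lower in CIE at 0 h. It ran in Ctrl mice from 11.86 through 12.26 to 12.35 and in CIE mice from 11.75 through 11.81 to 11.95, where 1 Ctrl mouse, number 48, lay within the CIE range. The difference was -0.39 (SE 0.0747, adjusted p 0.000575), and it passed in all 46 fits without 1 array. Its other probeset differed by -0.50 (adjusted p 0.0524).

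Nkx6-2, a homeodomain factor of maturing oligodendrocytes, ran in Ctrl mice at 0 h from 8.07 through 8.57 to 8.85 and in CIE mice from 7.96 through 8.01 to 8.15. The difference was -0.49 (SE 0.0899, adjusted p 0.00031), also past the threshold in all 46 fits, and again 1 Ctrl mouse lay among the CIE mice. Klk6 ran in Ctrl mice from 8.18 through 8.96 to 9.25 and in CIE mice from 8.04 through 8.34 to 8.48, a difference of -0.54 (SE 0.133, adjusted p 0.00908) that passed in 18 of 46 fits.

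Evi2a and Mobp each had probesets that went the same way but differed in size and in passing the threshold. The Evi2a probeset 1443894_at ran in Ctrl mice at 0 h from 6.23 through 6.89 to 7.46 and in CIE mice from 6.16 through 6.24 to 6.35, a difference of -0.64 (adjusted p 0.000841), while the representative differed by -0.15 (adjusted p 0.362). The CIE mice lay close together and the Ctrl mice were spread widely. Mobp, a basic protein of compact myelin, was higher at the probeset 1436263_at, from 11.67 through 12.05 to 12.27 in Ctrl mice and 12.55 through 12.66 to 12.84 in CIE mice. These groups did not overlap and differed by 0.67 (SE 0.0961, adjusted p 7.05e-06), or 1.59-fold. The other 4 Mobp probesets differed by 0.09 to 0.29, all upward, and none passed. In a fit of the 0 h groups alone this Mobp probeset was the 1 member call, and Ugt8a, Nkx6-2, Klk6 and Evi2a did not pass. Klk6 also did not pass with array medians aligned (-0.53) or with the striatal marker mean as covariate (-0.47).

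Members that did not pass at 0 h also went both ways. Pllp differed by -0.30 (adjusted p 0.0144) and Car2 by -0.25 (adjusted p 0.019), while Hapln2 differed by 0.25 (adjusted p 0.207), Myrf by 0.18 (adjusted p 0.353) and Mal by 0.16 (adjusted p 0.0807). The enzymes, transcription factors and receptors were mostly below 0, with 13 of 16 lower, and the sheath genes were divided, with 7 of 15 lower. Outside the members Apod, a lipid-binding apolipoprotein made by oligodendrocytes, rose by 0.40 (adjusted p 9.1e-05). The endothelial genes Kdr and Itm2a fell by 0.40 and 0.31 (adjusted p 0.000122 and 0.000841), and Kl of the choroid plexus rose by 0.42 (adjusted p 0.000802). Of the microglial markers 8 of 9 were lower with a median of -0.247, and all 11 striatal markers were higher with a median of 0.331, with none of either list past the threshold. The part of these lists in the members' values at 0 h was not tested beyond the fit with the striatal covariate. There 4 member probesets passed, and the share of all probesets is again not given.

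**Figure D4:**
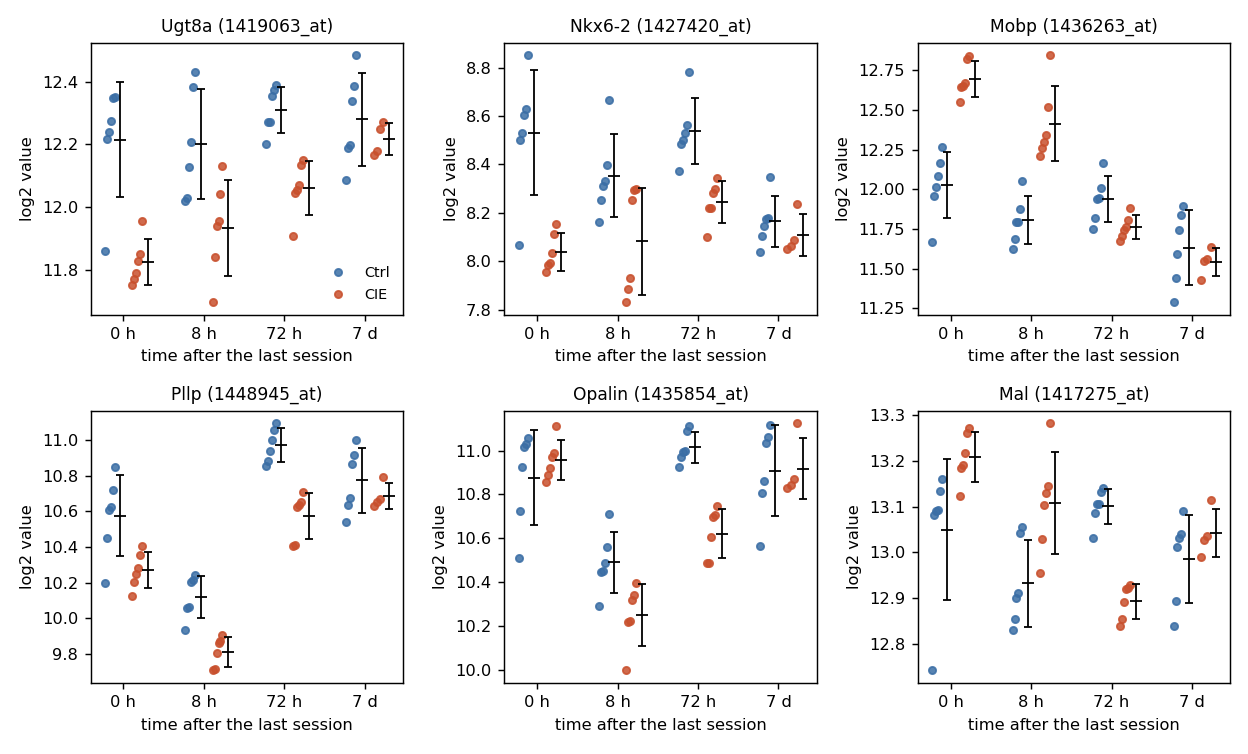
Log2 values of 6 member probesets in each mouse by time and treatment (6 mice a group, 4 for CIE at 7 d); points are mice, black bars are group means with SD, and each panel has its own axis, which does not start at 0. Ugt8a and Nkx6-2 were lower in CIE at 0 h, the Mobp probeset was higher at 0 h and 8 h, Pllp and Opalin were lower at 72 h, and the order of the Mal groups at 72 h was the reverse of that at 0 h.

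At 8 h the same Mobp probeset was the single member call, 1 of 61 beside 0.557% of all probesets, and 0 of the 31 representative probesets passed beside 0.742% of all genes. It ran in Ctrl mice from 11.62 through 11.80 to 12.06 and in CIE mice from 12.21 through 12.32 to 12.85, a difference of 0.61 (SE 0.0961, adjusted p 0.000126). No value overlapped. The other 4 Mobp probesets differed by 0.06 to 0.39, with adjusted p from 0.0827 to 0.761. In a fit of the 8 h groups alone 0 member probesets passed.

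Pllp at 8 h was lower in every CIE mouse than in any Ctrl mouse, as in no other of the 31 representative probesets at 8 h and in 0.781% of all genes. Its Ctrl mice ran from 9.94 through 10.13 to 10.24 and its CIE mice from 9.71 through 9.83 to 9.91. The difference was -0.31 (SE 0.079, adjusted p 0.0345), short of the threshold. Opalin differed by -0.24 (adjusted p 0.184), Mog by 0.29 (adjusted p 0.159) and Hapln2 by 0.34 (adjusted p 0.117). Over the 31 members the median was -0.0733, with 21 below 0 beside 53.9% of all genes. Outside the members Apod rose by 0.37 (adjusted p 0.000855) and Gpr17 fell by 0.50 (adjusted p 0.000192).

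At 7 d no member passed, 0 of 61 probesets beside 0 of all 45037. By limma's unadjusted p under 0.05 there were 2 member probesets, of Mbp and Tspan2, beside 2226 on the array, or 4.94%. The 31 representatives differed by -0.174 to 0.0572, with a median of -0.018 and 20 below 0 beside 41.4% of all genes, and their 95% intervals reached from -0.497 to 0.302 and all held 0. The Mbp probeset 1425263_a_at had the largest value, -0.62 (SE 0.167, adjusted p 0.597). Its 4 CIE mice stood at 7.96, 7.91, 8.02 and 7.76, and its 6 Ctrl mice ran from 8.16 through 8.58 to 8.76. The 7 other Mbp probesets differed by -0.24 to 0.05. Pllp stood at 10.79, 10.67, 10.63 and 10.65 in the 4 CIE mice and ran from 10.54 through 10.77 to 11.00 in Ctrl mice. Opalin stood at 11.12, 10.84, 10.87 and 10.83 in CIE mice and ran from 10.56 through 10.95 to 11.12 in Ctrl mice. In both genes the ranges of the groups overlapped at this time.

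**Figure D5:**
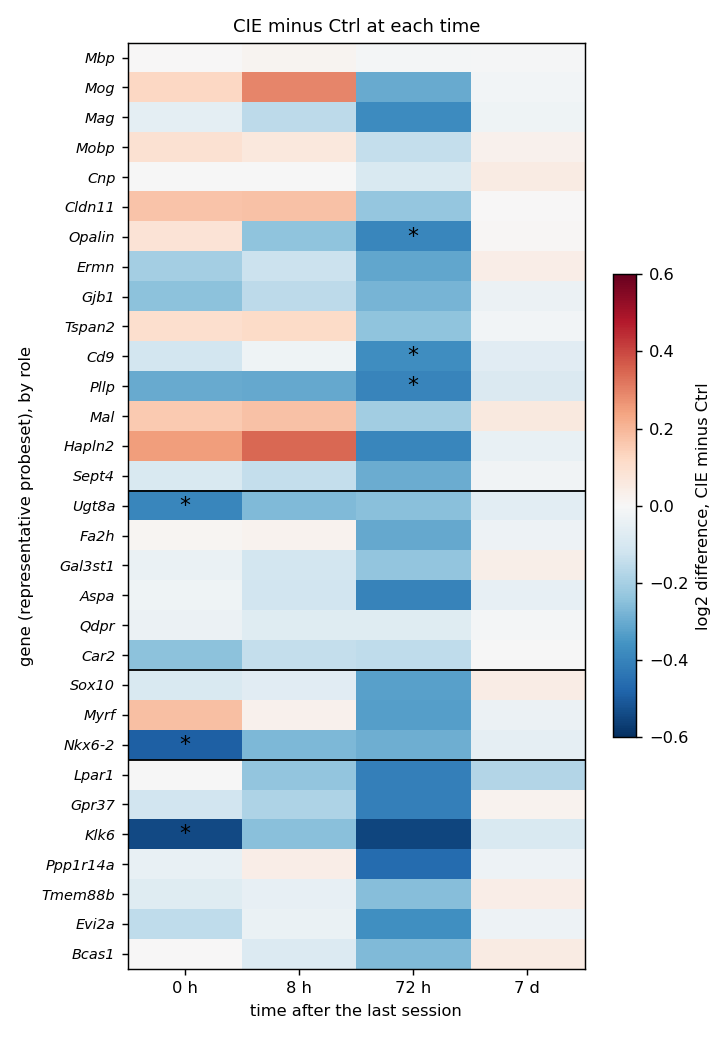
Log2 difference between CIE and Ctrl for the 31 members (rows, by role: sheath and cytoskeletal proteins, enzymes, transcription factors, receptors and others) at the 4 times (columns); blue is lower and red higher in CIE, and an asterisk marks an adjusted p of 0.01 or less. The 72 h column is blue throughout with a median of -0.30, the 0 h and 8 h columns hold both colors, and the 7 d column is pale.

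The CIE effect itself was compared between times. In a joint test of change over the 4 times 4 of 61 member probesets passed beside 1.04% of all probesets, and 2 of 31 representatives did beside 1.37% of all genes. They belonged to Mobp (1436263_at, adjusted p 1.69e-05), Mal (2 probesets, adjusted p 0.00341 and 0.00922) and Hapln2 (adjusted p 0.00752). All 3 genes encode proteins of myelin or of the node beside it.

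The difference of the Mobp probeset went from 0.67 at 0 h and 0.61 at 8 h to -0.18 at 72 h and -0.09 at 7 d. It was lower by 0.85 at 72 h than at 0 h (SE 0.136, adjusted p 0.000112), one of 3 member probesets with such a call beside 0.988% of all probesets. Mal's representative was 0.16, 0.18, -0.21 and 0.06 over the 4 times, and the step from 8 h to 72 h was -0.38 (SE 0.0764, adjusted p 0.00362). At 72 h its Ctrl mice ran from 13.03 through 13.11 to 13.14 and its CIE mice from 12.84 through 12.91 to 12.93, without overlap. Mal's other probeset did overlap at 72 h, from 12.41 to 12.87 in Ctrl mice and 11.93 to 12.53 in CIE mice. Hapln2 went from 0.25 and 0.34 to -0.39 and -0.04, and its step from 8 h to 72 h was -0.73 (SE 0.152, adjusted p 0.00531). From 8 h to 72 h 4 member probesets passed beside 0.515% of all probesets. The effect was lower at 72 h in 30 of 31 representatives, beside 8795 of 18193 genes. These steps share the 72 h mice with the comparison at 72 h. The Tspan2 probeset 1424568_at, of a tetraspanin, changed by -0.52 from 0 h to 72 h (adjusted p 0.00682).

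Levels also differed between times within each treatment, where each time holds different mice. In Ctrl mice 20 of 61 probesets differed over the 4 times beside 10.9% of the array, with 10 of 31 representatives beside 11.0% of all genes. In CIE mice 20 of 61 did beside 7.76% of the array, with 7 of 31 representatives beside 8.77%. Pllp gave the smallest adjusted p among members in Ctrl (1.72e-09), and its group means were 10.57, 10.12, 10.97 and 10.77 at 0 h, 8 h, 72 h and 7 d. In CIE mice its means were 10.27, 9.81, 10.57 and 10.69 (adjusted p 2.73e-10). In both treatments Pllp fell from 0 h to 8 h, by 0.46 in each (adjusted p 0.00123 and 0.000136), and was higher at 72 h than at 0 h, by 0.40 in Ctrl (adjusted p 0.0065) and 0.30 in CIE mice (adjusted p 0.00745).

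Opalin also fell from 0 h to 8 h, by 0.39 in Ctrl (adjusted p 0.00772) and by 0.71 in CIE mice. Its Ctrl means were 10.88, 10.49, 11.02 and 10.91 and its CIE means 10.96, 10.25, 10.62 and 10.92. The mean of the CIE mice at 72 h was below that of the CIE mice at 0 h by 0.34 (adjusted p 0.0054). Lpar1 fell by 0.64 from 0 h to 8 h in CIE mice (adjusted p 0.00311). From 0 h to 8 h 5 member probesets passed in Ctrl beside 0.713% of all probesets, and 6 in CIE mice beside 3.24%, all of them lower.

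Changes from 0 h to 72 h were read within each treatment. In Ctrl mice 29 of 31 members had a higher mean at 72 h and 2 a lower one, beside 6436 of 18193 genes with a lower one. The members' median change was 0.12 beside 0.0302 over all genes, and Pllp was the single call beside 0.173% of all probesets. In CIE mice 21 of 31 members had a lower mean, beside 7062 of 18193 genes. The median there was -0.0714 beside 0.0296, and 16 of 61 probesets passed beside 6.07%, 13 lower and 3 higher. The representatives that passed as lower were Mobp (-0.21), Opalin (-0.34), Tspan2 (-0.27) and Mal (-0.32), and those higher were Pllp (0.30) and Klk6 (0.55). Whether these changes differed between the treatments is the test of the change in CIE effect given above. From 0 h to 7 d the Mobp probeset 1436263_at fell by 1.15 in CIE mice and by 0.39 in Ctrl mice (adjusted p 0.00893), and Ugt8a rose by 0.39 in CIE mice (adjusted p 0.00182). In Ctrl mice Nkx6-2 fell by 0.37 from 0 h to 7 d (adjusted p 0.00946).

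Within a group the members often moved together from mouse to mouse. In Ctrl 0 h mouse 48 all 31 members were below their group mean, and the mean over members was -0.354, the next lowest mouse of that group being at 0.0347. All 31 were also below the group mean in Ctrl 7 d mouse 62 and CIE 8 h mouse 41, and all 31 above it in Ctrl 7 d mouse 80. At 72 h the SD of the mean over members was 0.0545 in Ctrl and 0.0726 in CIE mice. Leaving out Ctrl 0 h mouse 48 gave 10 member calls at 0 h in place of 5. It gave 7 in place of 4 for the change of the CIE effect, and 32 in place of 20 over time in Ctrl mice. The shares of all probesets called without that mouse are not given here.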

How the data were processed

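RNA of the BNST of 46 mice was measured on Affymetrix mouse oligonucleotide arrays, 1 mouse an array. The deposited values are log2 intensities per probeset. The authors corrected background by RMA, quantile normalized arrays within hybridization batch and again together, and adjusted for batch with ComBat. The batch of each array, the covariates and the versions: not given in the sources used here. A within-batch value could therefore not be had. Repeated quantile normalization would hide a shift of most genes. Of 45037 probesets 34945 had 1 gene symbol in the platform annotation, 932 several and 9160 none. Groups came from the labels. Means of 8 groups were fitted in limma 3.58.1 (R 4.3.3) on all arrays, with contrasts, F tests over times and Benjamini-Hochberg adjustment over all probesets. Members and gene lists were chosen with earlier results of these data known. All members were eligible to be named, in full where any probeset passed, and other lists by their calls. On simulated data 64 of 100 probesets changed by 0.4 at 72 h and 100 of 100 changed by 1 were recovered. The changed probesets were picked at random and varied independently, unlike the members, so these shares do not apply to the members. No measure of signal over background was made here, and the number of arrays sets the precision. Alternatives were another threshold, aligned medians, array weights, fitting only the groups compared, a level filter, trended moderation, covariates and leaving out each array.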

Additional observations from a re-analysis of the deposited data

Results flagged for a closer look

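Of 256 groups of 4 to 6 mice examined, 22 held a mouse that stood apart from the rest of its group by Dixon's criterion, and chance gives about 1 in 20. In 10 of the 22 it was the lowest Ctrl 0 h mouse, number 48: Cnp at 13.41, Ermn at 11.07, Tspan2 at 11.33, Mal at 12.74, Ugt8a at 11.86, Gal3st1 at 8.03, Car2 at 12.32, Gpr37 at 10.80, Ppp1r14a at 9.58 and Tmem88b at 9.89. In CIE 8 h mouse 21 Mag at 11.26, Hapln2 at 9.88 and Sept4 at 12.79 were high. High single mice were also seen for Tspan2 in Ctrl 8 h (11.67), Cldn11 in Ctrl 72 h (11.13), Mbp in Ctrl 7 d (14.26) and Opalin in CIE 7 d (11.12). Low single mice were seen for Gal3st1 in Ctrl 8 h (8.33), Aspa in Ctrl 72 h (11.09), Mog in CIE 0 h (10.005), Klk6 in CIE 0 h (8.04) and Cldn11 in CIE 72 h (10.52).

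The effect of CIE differed between times by the F test in limma for the Mobp probeset 1436263_at (adjusted p 1.69e-05), for the Mal probesets 1417275_at (0.00341) and 1432558_a_at (0.00922) and for the Hapln2 probeset 1420962_at (0.00752). Without 1 array at a time the Mal probeset 1432558_a_at passed in 14 of 46 fits and Hapln2 in 30.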

How the results depend on the processing

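Counts of member probesets called moved by over 1.5 times under several alternatives. The share of all probesets called in each alternative is not given here. These counts are therefore not set against the whole array. At an adjusted p of 0.05 the counts were 9 at 0 h, 3 at 8 h, 12 at 72 h, 10 for the change of the CIE effect and 32 over time in Ctrl. Array weights gave 3 at 8 h, 25 at 72 h, 10 for the change and 35 over time in Ctrl. Fitting only the groups compared gave 1 at 0 h, 0 at 8 h, 12 at 72 h and 10 over time in Ctrl. With 2 residual components as covariates there were 13 at 0 h, 6 at 8 h, 24 at 72 h, 1 at 7 d, 13 for the change and 36 over time in Ctrl. At 72 h a mean log2 value of at least 5 gave 5, trended and robust moderation 5, and the striatal marker mean as covariate 6. With each mouse's mean of the members as covariate there were 14 at 0 h, 8 at 8 h, 0 at 72 h, 7 for the change and 35 over time in CIE; the median difference at 72 h was then 0.0037 and 14 of 31 members were lower, as that covariate holds the members' own shift. Leaving out 1 array gave 4 to 10 at 0 h, 1 at 8 h, 0 to 9 at 72 h, 0 at 7 d, 2 to 7 for the change, 14 to 32 over time in Ctrl and 17 to 25 in CIE. The count of members lower at 72 h was 31 under every other alternative run, and the count of 19 without overlap was 19 with aligned medians and 19 to 25 without 1 array. No called difference of a single probeset between groups changed direction under these alternatives. No paired analysis was possible because the groups share no replicate number. The cause of these moves was not tested. The number of arrays, 4 in CIE at 7 d, limits the precision.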

Other observations

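Members were also set relative to each mouse's mean over the members, which is itself made of the members and so ties their values together. On that scale some members had to come out higher and others lower, so the division is not a result about them. At 0 h calls went both ways. Those that passed as higher in CIE were Mobp (1436263_at, 0.74), Hapln2 (0.34), Tspan2 (1424568_at, 0.34), Myrf (0.25) and Mal (0.20). Those that passed as lower were Evi2a (1443894_at, -0.56), Klk6 (-0.43), Nkx6-2 (-0.43), Ugt8a (-0.34), Pllp (-0.25) and Car2 (-0.19). At 8 h Mobp (0.67), Hapln2 (0.42), Mog (0.36), Tspan2 (0.27) and Mal (0.21) passed as higher on this scale and Pllp (-0.26) and Ugt8a (-0.22) as lower. Adjusted p in limma ran from 2.01e-11 to 0.00868 over the calls at 0 h. The share of all probesets called in this fit is not given here.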
